A study of Mus musculus with 2 samples.

Results

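The collagen chain genes of the mouse were taken as every symbol in the feature lists that consists of Col, a type number, the letter a and a chain number. This rule found 44 genes among 31053 features, of which 11 encode chains of fibrillar collagens, 6 encode chains of type IV (basement membrane) collagen and 27 encode chains of other types. Their RNA was counted in dispersed islet cells of 2 libraries, WT and Npc1-/- (Npc1KO in the labels), each made from the pooled islets of 3 female mice aged 2 weeks. The mice were littermates from crosses of Npc1+/- animals on the C57BL/6J background, Npc1 was disrupted in all cells of the body, and the islets were freed from the pancreas with a collagenase. Npc1 encodes a lysosomal and late endosomal protein that exports cholesterol.

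Each genotype was 1 library of pooled mice, so the genotypes were compared without replicates and no difference between them was tested. The intervals printed are 95% intervals and cover counting error only. The WT library held 114324626 UMIs (unique molecular identifiers, 1 for each captured RNA molecule) in 8569 barcodes, and the Npc1-/- library held 127122035 UMIs in 7646 barcodes, with 12 barcode sequences found in both. A barcode was kept when it held over 1000 genes and less than 50000 UMIs, of which mitochondrial genes took under 10% and haemoglobin genes no more than 0.1%, and this left 4628 WT and 4269 Npc1-/- cells.

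Cells in which no islet hormone reached 10% of UMIs were assigned to a stromal class when at least 5 markers of that class, and of no other class, were detected. The exception was that cells with 5 mesenchymal markers stayed mesenchymal whatever their number of stellate markers, so only cells below that number could be stellate. No collagen was a marker. The classes were mesenchymal-like (63 WT and 70 Npc1-/- cells), stellate-like (236 and 253), endothelial-like (413 and 397) and Schwann-like (35 and 42) cells, and the suffix is left out below. Cells with a hormone at 10% or more were assigned to their leading hormone as β (1833 and 1826), α (1048 and 857), δ (189 and 141) and PP (411 and 442) cells. Levels are given as CPM, UMIs of a gene per 1000000 UMIs of all genes, both summed over the cells of a class in 1 library. Because 3′ counting takes a single tag from each molecule, CPM values of different genes were compared without division by gene length.

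Each of the 4 stromal classes had genes of its own marker list among its leading genes. Because these markers assigned the cells, this was set in advance and is no check of the classes. Leading genes of mesenchymal cells included Dcn, Lum and Mfap4, the last not a marker. In endothelial cells they included Plvap, Emcn and Flt1, and in Schwann cells Fabp7 and Sostdc1. The leading genes of the stellate class were Rgs5, Ndufa4l2 and Acta2, which pericytes and vascular smooth muscle cells also express, so these cell types cannot be told apart here. The mesenchymal class carried stellate markers as well, with Rgs5 at 575 (WT) and 1191 CPM (Npc1-/-). Insulin RNA (Ins1 and Ins2) was also counted in every stromal class, at between 9671 and 24370 CPM, and was lower in the Npc1-/- library in each. Npc1 itself was lower in the Npc1-/- library in all 8 classes, for example at 20.2 and 9.36 CPM in endothelial cells and at 5.82 and 2.64 CPM in β cells, although in stellate (11.6 and 8.79 CPM) and δ cells (10.3 and 5.35 CPM) the interval of the ratio included 0. UMIs of the gene remained, and a 3′ tag may lie outside the disrupted part, so this is a weak check of the labels.

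Collagens are secreted proteins whose chains wind into a triple helix, and the chain genes a cell transcribes set which collagens it can assemble. Fibrillar collagens (types I, III and V among them) form the fibrils of loose connective tissue, while type IV collagen forms the sheet-like network of basement membranes. Types XII and XIV and their relatives (FACITs) sit on fibril surfaces, type VI forms beaded filaments, types XV and XVIII (multiplexins) lie next to basement membranes and types XIII, XVII, XXIII and XXV span the cell membrane. Inside the islet, capillary endothelium and the cells around it are surrounded by basement membrane, and endocrine cells lie against it.

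Collagen RNA made up the largest share of the transcriptome in mesenchymal cells, where the 44 genes together took 2.41% of UMIs in WT (2.38 to 2.45%) and 2.598% in Npc1-/- cells (2.56 to 2.64%). In endothelial cells the share was 0.956% and 1.02%. It was 0.754% and 0.853% in Schwann cells and 0.660% and 0.671% in stellate cells. Mesenchymal cells thus stood above the other 3 stromal classes in both libraries. The β, α, δ and PP cells held between 0.00810% and 0.0201%, so the lowest stromal sum lay far above the highest endocrine sum.

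The share also varied from cell to cell, and the classes overlapped when read cell by cell. In WT mesenchymal cells it ran from 0.662% through a median of 2.33% to 4.17%, and in Npc1-/- mesenchymal cells from 0.991% through 2.39% to 4.67%. The stellate cells ran from 0.203% through 0.636% to 3.13% in WT and from 0.162% through 0.606% to 2.38% in Npc1-/-. The endothelial cells ran from 0.0437% through 0.961% to 1.86% in WT and from 0.101% through 1.01% to 2.06% in Npc1-/-. Schwann cells covered 0.141% to 1.40% in WT and 0.0938% to 1.89% in Npc1-/-, with medians of 0.710% and 0.812%. None of the 1509 stromal cells lacked a collagen UMI, and the medians of the 2 genotypes lay well inside the range of single cells in each class.

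**Figure D1:**
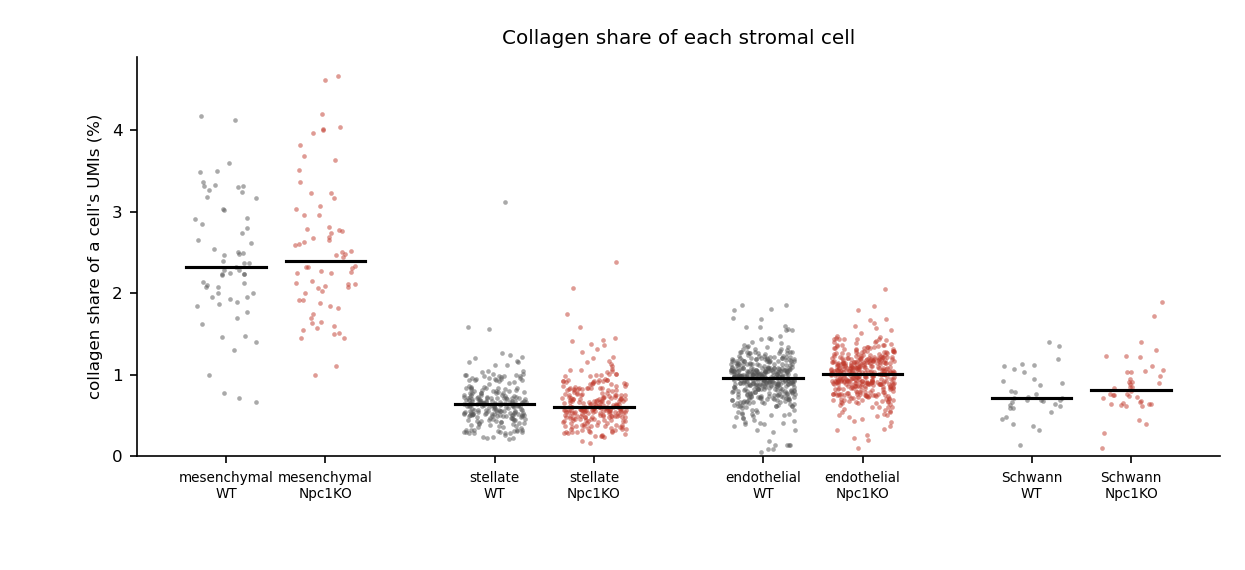
Collagen share of UMIs in single stromal cells, as the percent of a cell's UMIs on the y axis, by class and library, each point 1 cell and each bar the class median. Medians are 2.33% and 2.39% in mesenchymal, 0.636% and 0.606% in stellate, 0.961% and 1.01% in endothelial and 0.710% and 0.812% in Schwann cells (WT, then Npc1-/-), and the genotypes overlap in every class.

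The makeup of that collagen differed by class. In mesenchymal cells fibrillar chains gave 69.4% of collagen UMIs in WT and 65.4% in Npc1-/-, and type IV chains 14.5% and 19.01%. In endothelial cells the order was the opposite, with type IV at 84.1% and 84.3% and fibrillar chains at 0.362% and 0.397%. Stellate cells were also led by type IV, at 62.5% and 67.3%, with fibrillar chains at 27.1% and 23.5%. Schwann cells had the most even mixture, with 44.2% and 46.1% fibrillar, 22.4% and 28.3% type IV and 33.4% and 25.6% other chains. The remaining classes of chain took 16.1% and 15.6% in mesenchymal, 10.4% and 9.28% in stellate and 15.5% and 15.3% in endothelial cells.

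**Figure D2:**
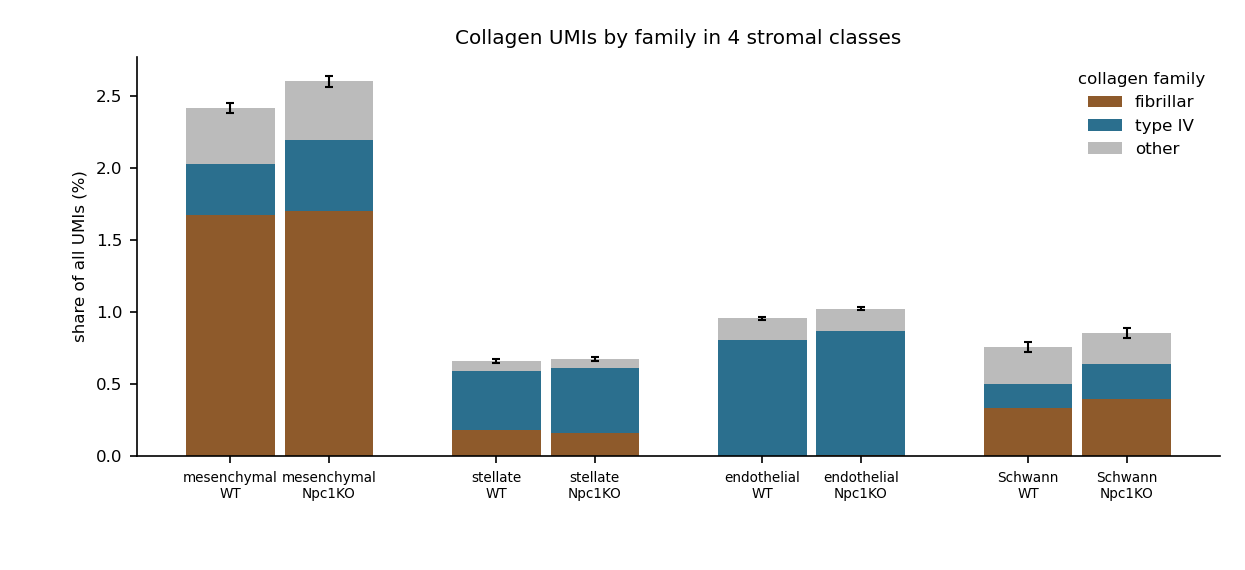
Collagen UMIs of each stromal class and library, stacked as fibrillar, type IV (basement membrane) and other chains, as percent of all UMIs of the class. Error bars are the 95% counting intervals of the total. Of the collagen UMIs alone, type IV chains take 84.1% and 84.3% in endothelial cells. Fibrillar chains take 69.4% and 65.4% of them in mesenchymal cells.

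At 20 CPM or more in any of the 8 classes and either library, 30 of the 44 genes were present, 29 of them in a stromal class and 5 in a hormone-led class. The share of all genes at 20 CPM was not computed, so these counts are descriptions. Hormone RNA also lowers the CPM of other genes in hormone-led cells, with Ins1 and Ins2 at 518526 and 492755 CPM in β cells. The other 14 collagen genes stayed below 20 CPM everywhere, and 3 of these, Col2a1, Col9a1 and Col24a1, were counted at below 1 CPM. These 3 had 0 UMIs in mesenchymal and Schwann cells. That allows up to 4.45 and 4.28 CPM in mesenchymal and up to 11.9 and 10.3 CPM in Schwann cells. A gene was described as particular in level to a class when it was at least 5-fold above each of the other 7 classes in both libraries. Of 33 genes with at least 5 CPM in their highest class of both libraries, 9 met that criterion. They were Col1a1, Col3a1 and Col6a5 in mesenchymal cells, where 0.838% of all genes met it, and Col19a1 in stellate cells (0.633% of all genes). The others were Col13a1 in endothelial cells (2.3%) and Col9a3, Col20a1, Col26a1 and Col28a1 in Schwann cells (1.75%). Col6a5 rested on 4 and 6 UMIs and Col19a1 on 17 and 14 UMIs. Both had 0 UMIs in Schwann cells, which allows up to 11.9 and 10.3 CPM. A 5-fold excess over Schwann cells was therefore not shown for these genes. Nor was it shown for Col19a1 over mesenchymal cells, where 0 UMIs in Npc1-/- allow up to 4.28 CPM. The WT value of Col6a5 was set against 1 UMI in stellate cells. No collagen met the criterion in a hormone-led class, where 0.198% of all genes did in β, 0.103% in α, 0% in δ and 0.0158% in PP cells.

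**Figure D3:**
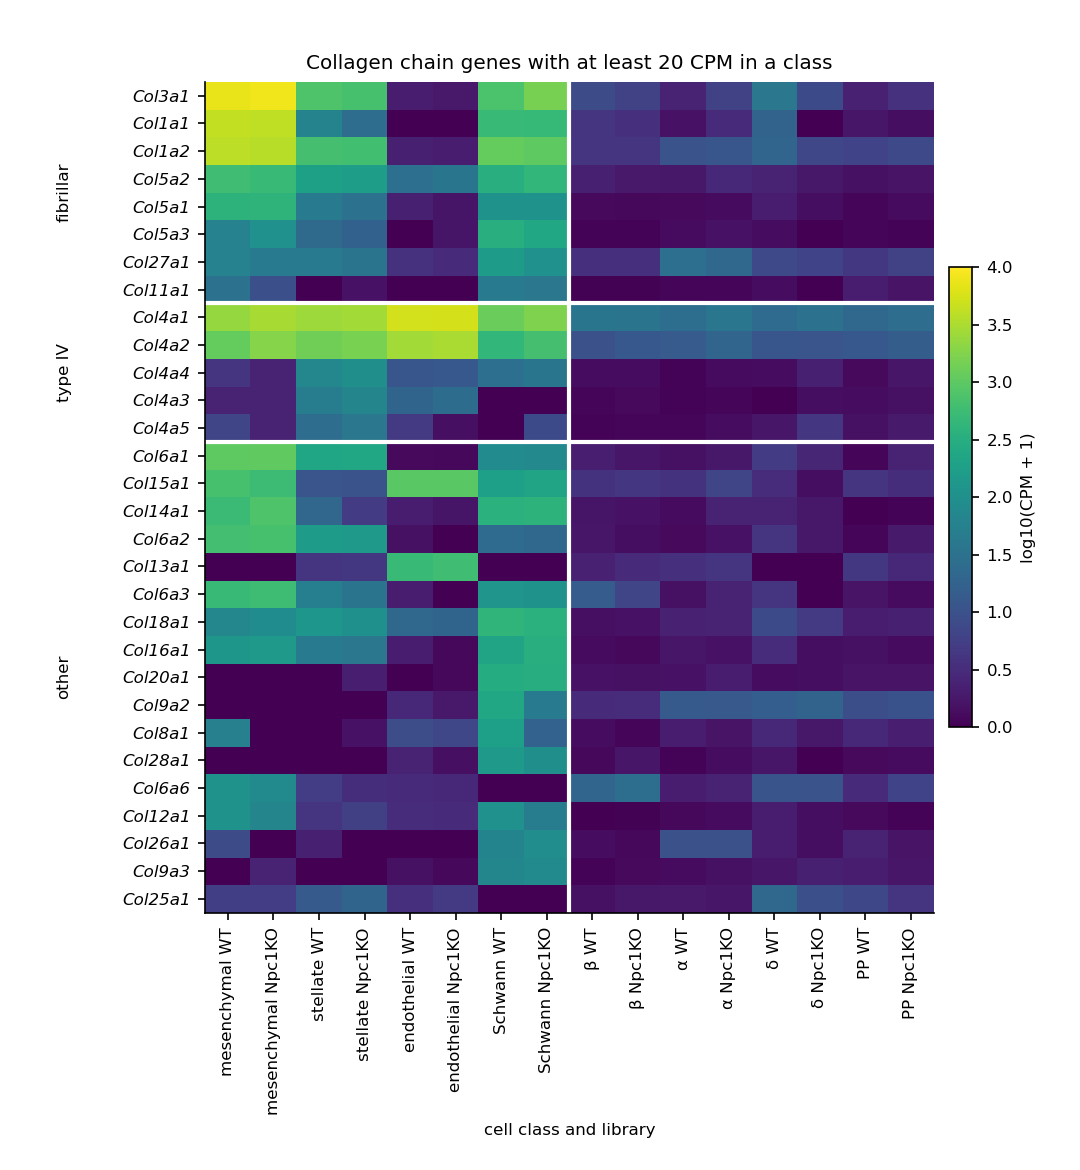
Levels of the collagen chain genes (rows, grouped by family) in 4 stromal and 4 hormone-led classes of each library (columns), as log10 of CPM plus 1. Col1a1 and Col3a1 are highest in mesenchymal cells, Col4a1 and Col13a1 in endothelial cells and Col20a1 in Schwann cells, and the hormone-led columns are low throughout.

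Among the fibrillar chains, Col3a1, the only chain of type III collagen, was the most abundant in mesenchymal cells, with 4939 UMIs in WT (7324 CPM) and 5722 UMIs in Npc1-/- (8161 CPM). Col1a1 and Col1a2, the chains of type I collagen, followed in mesenchymal cells at 4229 and 4112 CPM and at 4054 and 3658 CPM. Every mesenchymal cell of both libraries held UMIs of all 3 genes. The gene Col3a1 lies on chromosome 1 at chr1:45311538-45349706 on the plus strand and Col1a1 on chromosome 11 at chr11:94936224-94953042 on the plus strand (GENCODE vM21, GRCm38).

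Type I collagen is assembled from 2 chains of Col1a1 and 1 of Col1a2, and the RNA of these genes was in very different proportion in the stromal classes. In mesenchymal cells the ratio of Col1a1 to Col1a2 UMIs was 1.04 (0.989 to 1.10) in WT and 1.12 (1.07 to 1.19) in Npc1-/-. In Schwann cells it was 0.46 in both libraries. In stellate cells it was only 0.094 (0.076 to 0.115) in WT and 0.043 (0.031 to 0.057) in Npc1-/-, with intervals below those of the other 2 classes.

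The low ratio in stellate cells came from Col1a1 and not from Col1a2. Col1a2 stood at 649 and 619 CPM and was detected in 228 of 236 WT and 250 of 253 Npc1-/- stellate cells. Col1a1 stood at 61.0 CPM (49.6 to 74.2) and 26.4 CPM (19.2 to 35.3) and was detected in only 31 and 16 cells. After each cell was thinned to 2000 UMIs, Col1a2 remained in 65.5% and 69.8% of stellate cells and Col1a1 in 5.11% and 2.78%. Endothelial cells, which served as a background, held 0 Col1a1 UMIs in either library, which allows up to 0.758 and 0.669 CPM at 3 counts. Col1a2 there was at 1.26 and 1.11 CPM. The class rule bears on the stellate level of Col1a1, because cells with 5 mesenchymal markers could not be stellate. Of the mesenchymal cells, 25 WT and 45 Npc1-/- cells had 8 or more stellate markers, with Col1a1 at 3434 and 3501 CPM.

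The stellate cells with a Col1a1 UMI also differed in other genes from those without. Dcn, a mesenchymal marker, was at 157 and 226 CPM among them, against 0.726 CPM and 0 UMIs in the rest. Col14a1 was at 115 and 63.3 CPM against 2.18 CPM and 0 UMIs, and Col3a1 at 1302 and 1430 CPM against 684 and 624 CPM. Rgs5, the leading stellate gene, was at 6909 and 8007 CPM against 9343 and 8544 CPM. The part that RNA of mesenchymal cells in the same barcodes has in these values was not tested.

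Without the cells that held Col1a1, stellate cells still carried Col3a1 and Col1a2 (626 and 606 CPM). Over the whole class Col3a1 was at 783 and 677 CPM, or 12.8 and 25.7 UMIs for each UMI of Col1a1, where mesenchymal cells had 1.73 and 1.98. The stellate class was divided by clustering, with collagens left out, into a group led by Kcnj8, Higd1b and Steap4 (135 and 131 cells) and one led by Acta2, Tagln and Mustn1 (86 and 106 cells). Col3a1 was at 956 and 871 CPM in the former and 412 and 309 CPM in the latter. The Acta2-led group was therefore lower in Col3a1 in both libraries.

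Type V collagen chains, which take part in fibril assembly with type I, showed another pattern by class. Col5a2 was at 596 and 496 CPM in mesenchymal, 324 and 437 in Schwann and 187 and 168 in stellate cells, and endothelial cells held 27.8 and 34.5 CPM. Col5a1 was at 381 and 395 CPM in mesenchymal cells but at 1.26 and 0.669 CPM in endothelial cells, so that the endothelial ratio of Col5a2 to Col5a1 was 22 (9.15 to 69.1) and 51.7 (17.4 to 253). Col5a3 was the leading type V chain beside Col5a2 in Schwann cells, at 320 and 244 CPM, and 3.00 and 2.15 times Col5a1, against 0.16 and 0.26 times in mesenchymal cells. The minor fibrillar chains Col11a1 (43.5 and 37.8 CPM) and Col27a1 (154 and 103 CPM) were also highest in Schwann cells. Col11a2 was at most at 2.81 CPM in any class.

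Type IV collagen is built from 6 chain genes, and Col4a1 and Col4a2, which form the common network of most basement membranes, were by far the most abundant. Endothelial cells had the highest levels, with Col4a1 at 5250 CPM (20783 UMIs) in WT and 5502 CPM (24686 UMIs) in Npc1-/- and Col4a2 at 2753 and 3079 CPM. Col4a1 was at 2596 and 2756 CPM in stellate, 2337 and 3034 in mesenchymal and 1218 and 1709 in Schwann cells. The mesenchymal and stellate levels changed order between the libraries, so these neighbours were not separated. Col4a2 was at 1380 and 1555 CPM in stellate, 1148 and 1901 in mesenchymal and 443 and 667 in Schwann cells.

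These genes are arranged in head-to-head pairs, and the sequences of 2 pairs are shown because the chains within a pair are compared with each other here. Col4a1 (minus strand, chr8:11198423-11312826) and Col4a2 (plus strand, chr8:11312805-11449287) overlap by 22 bases at their starts in GENCODE vM21. The RefSeq promoter windows (GRCm38.p6, 250 bases before to 50 after the start) lie at chr8:11312777-11313076 and chr8:11312555-11312854, and each is printed 5′ to 3′ on its own strand, with capitals on the 78 bases that both windows hold.
Col4a1: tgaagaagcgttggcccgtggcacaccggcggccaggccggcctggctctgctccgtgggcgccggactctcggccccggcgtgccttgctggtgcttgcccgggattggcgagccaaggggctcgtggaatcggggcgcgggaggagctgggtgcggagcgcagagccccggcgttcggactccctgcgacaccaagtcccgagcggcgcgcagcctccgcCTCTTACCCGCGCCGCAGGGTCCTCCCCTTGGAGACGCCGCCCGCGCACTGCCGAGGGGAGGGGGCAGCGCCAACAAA
Col4a2: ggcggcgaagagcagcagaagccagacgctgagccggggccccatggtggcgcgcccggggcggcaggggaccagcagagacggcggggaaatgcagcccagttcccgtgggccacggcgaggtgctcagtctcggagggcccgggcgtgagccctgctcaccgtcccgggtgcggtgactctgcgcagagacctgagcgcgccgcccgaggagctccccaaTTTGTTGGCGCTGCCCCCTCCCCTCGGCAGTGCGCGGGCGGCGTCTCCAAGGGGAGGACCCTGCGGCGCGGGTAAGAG
Of these 300 bases 74.0% and 73.7% are G or C, against a median of 52.7% over 32851 promoter windows. GGGCGG (a GC box, either strand) is found in the windows of both genes, as in 35.7% of all windows and in 22 of the 35 collagen genes with one. CCAAT (either strand) is found in both as well, as in 37.4% of all windows and 13 of the 35. TATAAA (either strand) is in neither, and in 13.6% of all windows and 5 of the 35, namely Col3a1, Col10a1, Col11a2, Col13a1 and Col17a1.

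Col4a1 and Col4a2 had closely similar patterns of level. Over the 16 sums of class and library, log2(CPM + 1) of Col4a2 had a Pearson correlation of 0.996 with Col4a1, rank 1 of 9920 genes, and the next were Ehd2, Ltbp4, Ggta1, Ppic and Rras, between 0.991 and 0.993. The sums share libraries and depth, so this is a description. Col4a1 UMIs exceeded those of Col4a2 in every stromal class, by 1.91 (1.86 to 1.95) and 1.79 (1.75 to 1.83) times in endothelial, 1.88 and 1.77 in stellate, 2.04 and 1.60 in mesenchymal and 2.75 and 2.56 in Schwann cells. The ratio was lower in the Npc1-/- library in all 4 classes. The intervals of the libraries did not overlap in endothelial cells, nor in mesenchymal cells (1.87 to 2.22 in WT and 1.49 to 1.71 in Npc1-/-).

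The pair of Col4a3 and Col4a4, chains of a second type IV network known from the kidney filter, was highest in stellate cells. Col4a4 (minus strand, chr1:82448423-82586849) starts 71 bases from Col4a3 (plus strand, chr1:82586921-82722059). The window of Col4a4 at chr1:82586800-82587099 is printed with the 71 bases between the starts in capitals.
Col4a4: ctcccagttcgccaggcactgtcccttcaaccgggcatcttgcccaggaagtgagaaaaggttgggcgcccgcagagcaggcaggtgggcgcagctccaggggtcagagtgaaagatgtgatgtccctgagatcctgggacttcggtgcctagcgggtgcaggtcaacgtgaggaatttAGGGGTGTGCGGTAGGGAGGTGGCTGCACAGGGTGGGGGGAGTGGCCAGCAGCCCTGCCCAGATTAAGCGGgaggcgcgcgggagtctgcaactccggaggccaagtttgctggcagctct
Its 300 bases are 63.3% G or C and hold none of the 3 motifs searched above. In stellate cells Col4a4 was at 70.2 CPM (57.9 to 84.2) in WT and 96.1 CPM (81.9 to 112) in Npc1-/-, and Col4a3 at 48.2 CPM (38.2 to 60.1) and 64.4 CPM (53.0 to 77.7). In endothelial cells Col4a3 was at 18.4 and 24.5 CPM and Col4a4 at 10.9 and 11.6 CPM. The ratio of Col4a4 to Col4a3 was 1.46 (1.08 to 1.96) and 1.49 (1.16 to 1.92) in stellate cells but 0.59 (0.39 to 0.87) and 0.47 (0.33 to 0.66) in endothelial cells, so the pair was not expressed in a fixed proportion. The β cells, which held 0.146 and 0.277 CPM of Col4a3 and 0.365 and 0.351 CPM of Col4a4, gave the background. Schwann cells had Col4a4 at 27.7 and 34.4 CPM with 0 UMIs of Col4a3, which allows up to 11.9 and 10.3 CPM.

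The third pair, Col4a5 and Col4a6 on the X chromosome, starts 1308 bases apart. Col4a5 completes the network of Col4a3 and Col4a4 and was likewise highest in stellate cells, at 26.2 and 37.5 CPM, with at most 6.88 CPM in any other stromal class. Col4a6 was seen in stellate cells alone among the stromal classes, at 6.10 and 4.10 CPM. Its 0 UMIs in Schwann cells allow up to 11.9 and 10.3 CPM, so a lower level there was not shown. The Acta2-led group of stellate cells had Col4a4 at 73.8 and 125 CPM, and its Col4a1, at 2146 and 2080 CPM, was below the 2906 and 3258 CPM of the Kcnj8-led group.

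The type VI chains Col6a1, Col6a2 and Col6a3, which assemble together into 1 unit of the beaded filament, were highest in mesenchymal cells. Their levels there were 1001 and 1050 CPM, 644 and 680 CPM and 492 and 573 CPM. In stellate cells the same chains were at 228 and 252, 159 and 145 and 51.9 and 34.0 CPM, so Col6a1 exceeded Col6a3 by 4.40 (3.47 to 5.64) and 7.41 (5.63 to 9.93) times, against 2.03 and 1.83 times in mesenchymal cells. Schwann cells had the reverse order, with 83.0 and 75.7 CPM of Col6a1 and 123 and 113 CPM of Col6a3, but the interval of that ratio (0.370 to 1.22 in WT) included 1. Col6a6, a further type VI chain, was at 114 and 79.9 CPM in mesenchymal cells, and Col6a4 and Col6a5 were at most at 8.56 CPM in any class.

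Among the fibril-associated chains, Col14a1 marked mesenchymal (529 and 803 CPM) and Schwann cells (356 and 385 CPM). Col12a1 was at 108 and 64.2 CPM and at 103 and 48.1 CPM in the same classes, and Col16a1 at 129 and 144 CPM and at 217 and 320 CPM. Col20a1 was at 300 CPM (76 UMIs in 25 of 35 cells) and 309 CPM (90 UMIs in 30 of 42 cells) in Schwann cells and at most 1.17 CPM in each other class. Col9a3 was at 67.2 and 79.1 CPM in Schwann cells and Col19a1 at 10.4 and 8.2 CPM in stellate cells.

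The multiplexins divided between classes. Col15a1 was highest in endothelial cells, at 936 and 943 CPM, followed by mesenchymal (690 and 551 CPM) and Schwann cells (182 and 213 CPM), with 10.4 and 9.37 CPM in stellate cells. Col18a1, whose tail is the source of endostatin, was highest in Schwann cells at 411 and 358 CPM, followed by stellate (128 and 100 CPM) and mesenchymal cells (71.2 and 87.0 CPM), and endothelial cells held 20.5 and 18.3 CPM. The stellate and endothelial classes, which both carried abundant type IV chains, thus differed in which multiplexin they transcribed.

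The transmembrane collagen Col13a1 was nearly restricted to endothelial cells among the stromal classes. It was at 506 CPM (2002 UMIs in 362 of 413 cells) and 587 CPM (2632 UMIs in 366 of 397 cells), with 3.05 and 3.51 CPM in stellate cells and 0 UMIs in mesenchymal and Schwann cells. It also varied within endothelium. It was at 384 and 401 CPM in the cluster led by Apln, Dapk2 and Aplnr (170 and 132 cells). In the cluster led by Esm1, Igfbp3 and Gja1 (115 and 167 cells) it was at 694 and 708 CPM. It reached 905 and 879 CPM in the cluster led by Stmn2, Hey1 and Sox17 (38 and 39 cells). A cluster led by Cenpf, Ube2c and Prc1 (46 and 30 cells) was lowest, at 198 and 248 CPM, but only 52.6% of its barcodes were of the endothelial class. The Coch-led cluster is given below. Col15a1 ran the other way between the Apln-led and the Hey1-led cluster, with 1035 and 1047 CPM against 615 and 557 CPM. Col18a1, near 20 CPM over all endothelial cells, was at 77.2 and 92.8 CPM in the Hey1-led cluster.

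At 5 CPM or more in either library, 28 chain genes were counted in Schwann, 25 in mesenchymal, 22 in stellate and 9 in endothelial cells. Over all genes the order was the same, with 10937, 10725, 10452 and 10016. Counted by any UMI, Schwann cells had the fewest, with 28 and 27 chain genes. Mesenchymal cells had 32 and 30, stellate cells 32 and 31 and endothelial cells 29 and 29. Col28a1, a type known from peripheral nerve, was at 146 CPM (37 UMIs in 18 cells) and 96.3 CPM (28 UMIs in 15 cells), with 1.52 and 0.446 CPM in endothelial cells. Col26a1 was at 63.3 and 89.4 CPM in Schwann cells. This class was also the smallest, with 252912 and 290805 UMIs in all, so 5 CPM there is about 1 UMI.

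The genotypes were then compared within each class, as the log2 ratio of Npc1-/- to WT relative to the median gene of that class, with a pseudocount of 0.5 UMIs. Over all 44 genes the ratio was 0.16 (0.13 to 0.19) in mesenchymal, 0.02 (-0.02 to 0.06) in stellate, 0.10 (0.08 to 0.12) in endothelial and 0.14 (0.05 to 0.23) in Schwann cells. All 4 are changes of under 1.5-fold. The Schwann value depended on how the class was drawn. It was -0.083 (-0.17 to 0.0037) with 4 markers (35 and 43 cells) and 0.077 (-0.011 to 0.16) with classes from clusters (35 and 40 cells). With the stricter cell filter, which left 10 and 10 Schwann cells, it was 0.33 (0.18 to 0.48). Type IV chains were higher in the Npc1-/- library in each class, by 0.55 (0.48 to 0.63) in mesenchymal, 0.48 (0.30 to 0.66) in Schwann, 0.12 (0.08 to 0.17) in stellate and 0.10 (0.08 to 0.12) in endothelial cells on the log2 scale. Fibrillar chains were at 0.08, 0.20, -0.19 and 0.23 in the same order, the last with an interval that included 0 (-0.10 to 0.56). The type IV value of Schwann cells also depended on how the class was drawn. Col4a1 was at 1218 and 1709 CPM and Col4a2 at 443 and 667 CPM over the class. In the Schwann cluster (35 and 40 cells) they were at 1495 and 1762 CPM and at 564 and 686 CPM, a narrower gap.

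Single genes were counted as past 1.5-fold beside the share of all genes past it. In mesenchymal cells 3 of 25 genes with at least 5 CPM were higher in Npc1-/- cells, where 16.5% of all genes were, and 7 were lower, where 16.5% of all genes were. In stellate cells 0 of 22 were higher (7.17% of all genes) and 3 were lower (8.12%). In endothelial cells 0 of 9 were past it in either direction (1.96% higher and 4.47% lower). In Schwann cells 3 of 28 were higher (21.3%) and 6 were lower (23.5%). The median over the members was 0.02, -0.19, 0.09 and -0.08, so the collagen genes as a list stayed close to the median gene of their class.

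**Figure D4:**
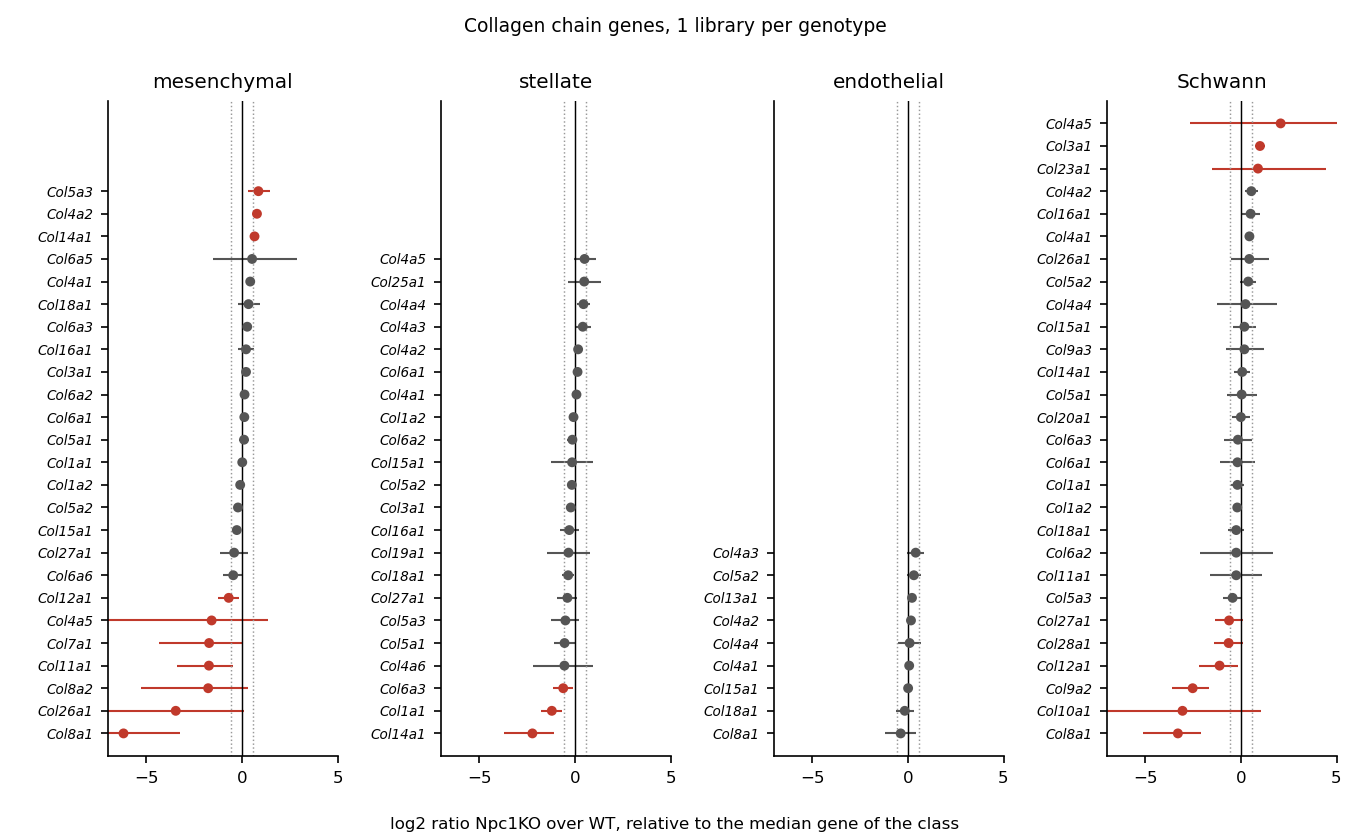
Log2 ratio of Npc1-/- to WT relative to the class's median gene for each collagen gene with at least 5 CPM in either library, by stromal class, with 95% counting intervals and lines at 1.5-fold. No endothelial gene lies past 1.5-fold, and Col8a1 lies lowest in mesenchymal and Schwann cells.

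In mesenchymal cells the genes that were higher in the Npc1-/- library were Col5a3 (59.3 and 104 CPM, 0.86, 0.29 to 1.46), Col4a2 (0.78, 0.66 to 0.91) and Col14a1 (0.66, 0.46 to 0.85). Col4a2 had 774 UMIs in 61 of 63 WT cells and 1333 UMIs in all 70 Npc1-/- cells. Of the 7 that were lower, Col12a1 (-0.69, -1.27 to -0.14), Col11a1 (21 and 6 UMIs, -1.73, -3.41 to -0.45) and Col8a1 had intervals apart from 0. Col8a1, a short-chain network collagen, fell from 36 UMIs in 5 WT cells, 12 of them in 1 cell, to 0 UMIs, or at least 12.5-fold against a floor of 3 UMIs for the Npc1-/- library. The other 4, Col4a5, Col7a1, Col8a2 and Col26a1, had fewer than 20 UMIs over both libraries and intervals that included 0.

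The mesenchymal class also differed in makeup between the libraries. At least 8 stellate markers were detected in 25 of 63 WT and 45 of 70 Npc1-/- mesenchymal cells. In these cells Col4a2 was at 1617 and 1943 CPM and Col1a1 at 3434 and 3501 CPM, and in the remaining 38 and 25 cells Col4a2 was at 896 and 1827 CPM and Col1a1 at 4656 and 5205 CPM. Col4a2 was thus higher in the Npc1-/- library on both sides of the division. Col4a1 was at 3269 and 3181 CPM in the cells with 8 or more stellate markers and at 1837 and 2770 CPM in the rest, so it was higher in Npc1-/- in the second group alone. Col14a1 was at 739 and 834 CPM in the first group and at 417 and 748 CPM in the second. Col5a3 was at 50.9 and 55.6 CPM in the first group and at 63.8 and 191 CPM in the second. A single Npc1-/- cell held 13 of its 73 UMIs. Col12a1 was at 59.4 and 75.6 CPM in the first group and at 134 and 43.8 CPM in the second. It was thus lower in Npc1-/- in the second group alone. All 36 UMIs of Col8a1 lay in WT cells with fewer than 8 stellate markers. Over all collagens the share of UMIs was 2.44% and 2.38% in cells with 8 or more stellate markers and 2.40% and 2.98% in the rest, where the ratio was 0.34 in place of 0.16.

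In stellate cells the 3 genes that were lower in the Npc1-/- library were Col1a1 (-1.21, -1.76 to -0.69), Col6a3 (85 and 58 UMIs, -0.61, -1.12 to -0.12) and Col14a1 (33 UMIs in 8 cells and 7 UMIs in 3 cells, -2.22, -3.72 to -1.10). All 3 were more abundant in mesenchymal than in stellate cells, as were Col3a1 and Col1a2. Col14a1, like Dcn, was near 0 in stellate cells without a Col1a1 UMI, whereas Col6a3 was at 46.4 and 30.7 CPM there. Col1a1 was at 42.8 and 12.9 CPM in the Kcnj8-led group and at 10.8 and 10.5 CPM in the Acta2-led group. A Col1a1 UMI was seen in 31 of 236 WT and 16 of 253 Npc1-/- stellate cells, and 1 WT cell held 25 of the 100 WT UMIs. Col4a4 was at 0.45 (0.10 to 0.81) and Col4a3 at 0.41 (-0.02 to 0.85), below 1.5-fold.

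In Schwann cells Col3a1 was at 1.001 (0.75 to 1.26), from 184 UMIs in 28 of 35 WT cells to 436 UMIs in 36 of 42 Npc1-/- cells. A single Npc1-/- cell held 84 of these, and the highest WT cell held 22. Over the class Col3a1 was at 728 and 1499 CPM, and in the Schwann cluster (35 and 40 cells) at 759 and 1238 CPM, a narrower gap. Col8a1 (45 and 5 UMIs, -3.29, -5.10 to -2.08), Col9a2 (60 UMIs in 14 cells and 12 UMIs in 7 cells, -2.52, -3.59 to -1.65) and Col12a1 (26 and 14 UMIs, -1.11, -2.19 to -0.14) were lower. Col9a2 and Col9a3 encode partner chains of type IX collagen, and their ratio went from 3.53 (2.03 to 6.45) in WT to 0.52 (0.24 to 1.09) in Npc1-/- cells while Col9a3 itself was at 67.2 and 79.1 CPM. The other 5 genes past 1.5-fold, Col4a5, Col23a1, Col27a1, Col28a1 and Col10a1, had intervals that included 0. Col8a1 was lower in the Npc1-/- library in mesenchymal and Schwann cells. These classes are singled out by its high WT level, and that choice by itself favours a lower value in the other library. Its WT UMIs lay in 5 mesenchymal and 14 Schwann cells. In endothelial cells Col8a1 was at 7.83 and 6.02 CPM.

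In endothelial cells, the stromal class with the most UMIs, every tested gene lay within 1.5-fold. The ratio was 0.07 (0.04 to 0.10) for Col4a1, 0.16 (0.13 to 0.20) for Col4a2, 0.22 (0.13 to 0.30) for Col13a1 and 0.01 (-0.05 to 0.08) for Col15a1. The libraries differed in how endothelial cells fell into clusters, with 170 and 132 cells in the Apln-led and 115 and 167 in the Esm1-led cluster, and Col13a1 within these differed less than over the class, as given above. In the Coch-led cluster it was at 318 and 415 CPM. Between clusters Col4a1 was uneven as well. It was at 4309 and 5552 CPM in the cluster led by Coch, Stab2 and Gpr182 (68 and 51 cells). In the Esm1-led cluster it was at 5487 and 5403 CPM and in the Hey1-led cluster at 4622 and 4382 CPM. The Coch-led cluster, which also held barcodes outside the endothelial class, had Col1a2 at 68.1 and 4.42 CPM and Col14a1 at 34.1 and 0 CPM. The whole endothelial class held only 5 UMIs of Col1a2 and 4 UMIs of Col14a1 in WT. Most WT UMIs of these genes in the cluster therefore lay in barcodes outside the class. Whether those barcodes bear on the cluster's Col4a1 and Col13a1 was not tested.

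Hormone-led cells held few collagen UMIs, and these fell into a group that followed stromal RNA and a group that did not. The division was made by setting aside hormone-led cells with 3 or more markers of a stromal list, which left 1753 of 1833 WT and 1718 of 1826 Npc1-/- β cells. Col1a1 in β cells went from 3.01 and 2.47 CPM to 0.115 and 0.0593 CPM, Col3a1 from 7.61 and 4.91 to 0.518 and 0.712 CPM, Col13a1 from 1.31 and 2.12 to 0.0576 and 0.297 CPM and Col4a2 from 8.87 and 11.5 to 0.806 and 1.56 CPM. These 4 genes nearly left the class with the cells that carried stromal markers.

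Other collagens stayed at the same level. In β cells Col6a6 was at 19.5 CPM (1069 UMIs in 730 cells) in WT and 27.0 CPM (1461 UMIs in 856 cells) in Npc1-/-, and at 19.6 and 26.6 CPM in those with few stromal markers. Col6a3 was at 13.5 CPM (737 UMIs in 435 cells) and 5.87 CPM (318 UMIs in 223 cells), and at 13.6 and 5.87 CPM. In β cells Col6a3 came without its partners, since Col6a1 was at 1.15 and 0.720 CPM, 0.085 (0.065 to 0.111) and 0.123 (0.086 to 0.171) UMIs for each UMI of Col6a3. Col4a1 was in between, with 34.9 and 33.9 CPM in all β cells and 19.5 and 16.8 CPM in those with few stromal markers, where Col4a2 was at 0.806 and 1.56 CPM. With few stromal markers, Col4a1 was at 8.59 and 7.77 CPM in α, 7.33 and 8.13 in δ and 4.78 and 5.87 in PP cells, so what remained was highest in β cells in both libraries.

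The chains in this remainder differed between endocrine classes, but Col9a2, Col25a1 and Col6a6 were counted in more than 1 of them, and no gene met the criterion used above in a hormone-led class. In α cells with few stromal markers Col27a1 was at 28.2 and 21.1 CPM, Col9a2 at 12.5 and 12.7, Col26a1 at 8.53 and 9.05 and Col1a2 at 8.83 and 7.38, the last with Col1a1 at 0.409 and 0.321 CPM. In δ cells Col25a1, a transmembrane collagen, was at 21.6 and 9.04 CPM, Col9a2 at 14.7 and 18.1 and Col6a6 at 10.0 and 10.4. In PP cells Col9a2 was at 8.01 and 9.44 CPM and Col25a1 at 6.58 and 2.76. Col25a1 was also in stellate cells, at 12.8 and 18.2 CPM. These levels are low beside those of stroma, and for Col27a1 in α cells a UMI was seen in 346 of 1048 and 240 of 857 cells.

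**Figure D5:**
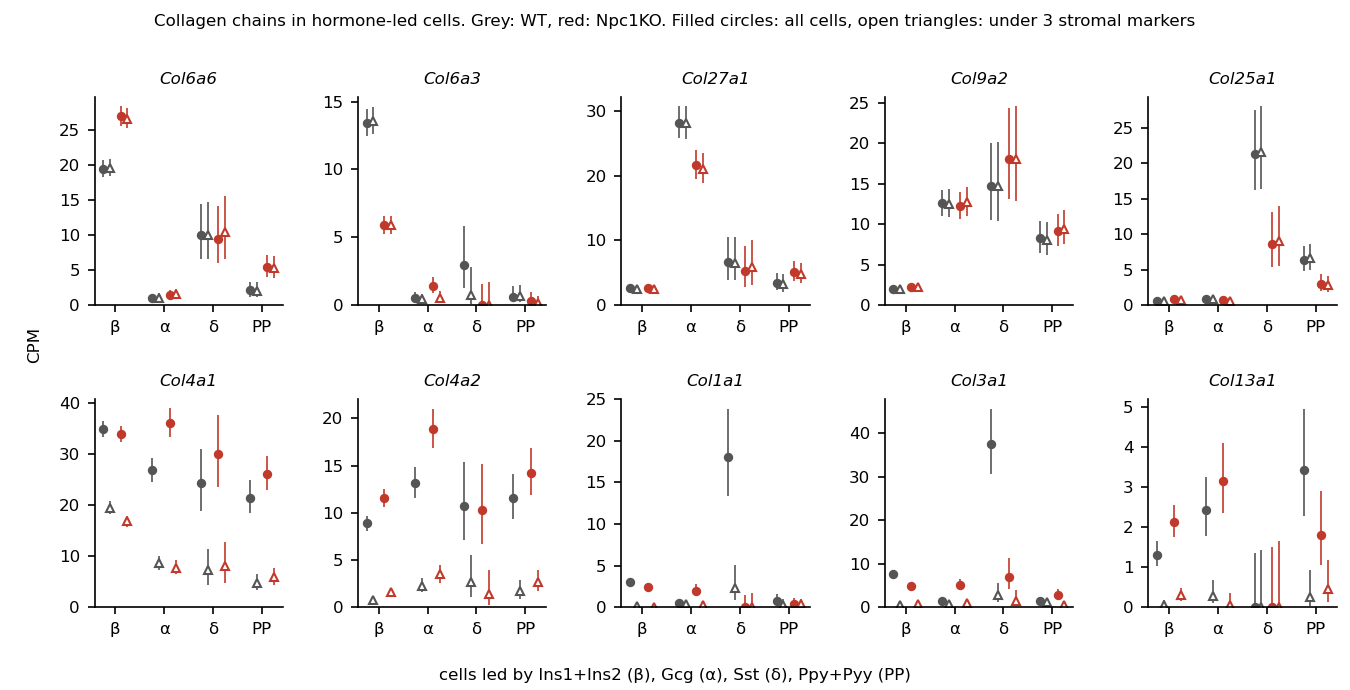
CPM of selected collagens in hormone-led cells of each library, in all cells and in those with fewer than 3 markers of each stromal list. Col6a6 and Col6a3 in β cells and Col27a1 in α cells keep their level, whereas Col1a1, Col3a1, Col4a2 and Col13a1 drop.

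Between genotypes, Col6a3 in β cells was at -1.31 (-1.51 to -1.12) and Col6a6 at 0.35 (0.23 to 0.46), relative to a median gene at 0.12. Of 5 collagens with at least 5 CPM in β cells 0 were higher past 1.5-fold (1.3% of all genes) and 2 were lower (1.35%), the other being Col3a1, which left with the stromal markers. In α cells 2 of 8 were higher (0.707%), Col3a1 and Col15a1, both of which left with the stromal markers as well, and 0 were lower (1.07%). In PP cells 1 of 7, Col6a6 (17 and 51 UMIs), was higher (2.02%) and 1, Col25a1 (52 and 28 UMIs), was lower (2.37%). In δ cells 0 of 10 were higher (6.31%) and 5 were lower (5.6%), namely Col1a1, Col1a2, Col3a1, Col18a1 and Col25a1. The δ values of Col1a1 and Col3a1 rested on 1 WT cell, which held 41 of 49 and 95 of 102 UMIs. The 52 WT UMIs of Col1a2 lay in 3 of 189 δ cells that also held Col1a1 and in 1 that did not. For Col25a1 in δ cells, 58 UMIs in 42 WT cells stood against 21 UMIs in 19 Npc1-/- cells.

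Genes that process, bind or sense collagen were read as lists in the same classes, beside the shares of all genes past 1.5-fold given above and a median gene at 0. For the counts of list genes highest in a class, here and below, no share over all genes is given. Those counts are therefore descriptions, and whether they differ from other genes was not tested. Of the 21 testable genes of chain modification and folding, 13 were highest in mesenchymal cells in both libraries. Ppib, a prolyl isomerase, was at 1369 and 1486 CPM there, Serpinh1, the collagen chaperone, at 1161 and 944 CPM, and P4hb, a subunit of prolyl hydroxylase, at 288 and 242 CPM. Serpinh1 was lower in the Npc1-/- library in all 4 stromal classes, between -0.23 and -0.34, each with an interval apart from 0 and each within 1.5-fold. Hspa1a, a heat shock gene, was also lower in all 4. It was at 860 and 576 CPM in mesenchymal, 1202 and 999 in stellate, 690 and 456 in endothelial and 676 and 296 in Schwann cells. Fos was lower in each class as well, and whether the Serpinh1 values go with these genes was not tested. The list median was -0.22 in mesenchymal, -0.20 in stellate, -0.08 in endothelial and -0.23 in Schwann cells.

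Past 1.5-fold in this list were 1 gene higher (Tmem38b) and 2 lower (Plod2 and P3h2) of 20 in mesenchymal cells, and 0 higher and 1 lower (Fkbp14) of 19 in stellate cells. In endothelial cells 0 of 20 were past it. In Schwann cells 3 were higher (Fkbp10, Colgalt1 and Creb3l1) and 5 lower (P4ha2, P4ha3, Mia3, Sec24d and Tmem38b) of 21, on between 1 and 23 UMIs in a library. Sec24d (10 and 4 UMIs) and Creb3l1 (2 and 6 UMIs), the list's widest ratios above 20 CPM, had intervals that included 0.

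Of 9 testable genes of propeptide removal and crosslinking, 6 were highest in mesenchymal cells. They were led by Pcolce (770 and 873 CPM), the enhancer of the C-propeptide proteinase, Loxl1 (578 and 542 CPM), a lysyl oxidase, and Adamts2 (209 and 260 CPM), the N-propeptidase. None of 9 was past 1.5-fold in mesenchymal cells. In stellate cells 0 were higher and 2 lower (Adamts2 and Loxl1) of 8, and in endothelial cells 0 were higher and 2 lower (Pcolce, 115 and 74 UMIs, and Tgm2) of 5. In Schwann cells 1 was higher (Adamts2, 9 and 18 UMIs) and 1 lower (Loxl1) of 8. The median of this list was 0.29, -0.09, -0.29 and 0.14 in mesenchymal, stellate, endothelial and Schwann cells. Adamts2 was also the gene most like Col1a1 over the 16 sums, with a Pearson correlation of 0.983, followed by Fzd2, Nnmt, Islr and Postn (0.962 to 0.973), whereas Col1a2 came at rank 15 with 0.947.

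Among fibril-binding matrix genes, Sparc, a collagen-binding glycoprotein, was at 9454 and 12073 CPM in mesenchymal cells. It was at similar levels in Schwann (11356 and 11104 CPM) and endothelial cells (8977 and 9674 CPM). Bgn, a small proteoglycan, was at 2603 and 2479 CPM and Postn at 1430 and 1603 CPM in mesenchymal cells. Of 12 genes in mesenchymal cells 4 were higher (Ogn, Aspn, Fn1 and Tnxb) and 1 lower (Prelp, 17 and 5 UMIs). In stellate cells 0 were higher and 2 lower (Thbs1, and Eln with 287 and 121 UMIs) of 10, and in endothelial cells 1 was higher (Fn1, 53 and 92 UMIs) and 0 lower of 7. In Schwann cells 0 were higher and 3 lower (Ogn, Eln and Thbs2, the last with 11 and 0 UMIs) of 9. Over the list the median was 0.13, 0.05, 0.05 and -0.01 in the same class order.

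Of 12 testable laminin and other basement membrane genes, 7 were highest in endothelial cells. Hspg2, the proteoglycan perlecan, was at 1215 and 1424 CPM there and Lamc1, a laminin chain, at 464 and 481 CPM, while Nid1, which links laminin to type IV collagen, was highest in mesenchymal cells at 796 and 941 CPM. Past 1.5-fold were 0 higher and 1 lower (Lama5, 5 and 0 UMIs) of 10 in mesenchymal cells, none of 10 in stellate and in endothelial cells, and 2 higher (Lama5 and Nid2, with intervals that included 0) and 0 lower of 10 in Schwann cells. The medians were 0.11, -0.03, 0.16 and 0.08.

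Of the collagen receptors, Itga1 (739 and 699 CPM) and Itgb1 (710 and 722 CPM), the subunits of an integrin that binds type I and type IV collagen, were highest in stellate cells. Ddr2, a receptor tyrosine kinase for fibrillar collagen, was highest in mesenchymal cells at 122 and 121 CPM. Past 1.5-fold were 0 higher and 1 lower of 6 in mesenchymal cells (Mrc2, an endocytic collagen receptor, 67 and 36 UMIs, -0.89, -1.52 to -0.29), and 1 higher (Itga10, 15 and 26 UMIs) and 0 lower of 6 in stellate cells. In endothelial cells 0 were higher and 2 lower (Itga2 and Ddr1) of 5, and in Schwann cells 0 were higher and 1 lower (Adgrg1, 17 and 13 UMIs) of 6. List medians were 0.09, -0.02, -0.08 and 0.25.

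Among degradation genes and their inhibitors, Timp3, an inhibitor of matrix metalloproteinases, had different directions in different classes. It was at 1119 and 1843 CPM in stellate cells (0.72, 0.63 to 0.80) and at 828 and 1145 CPM in endothelial cells (0.47, 0.40 to 0.53), but at 285 and 163 CPM in mesenchymal cells (-0.75, -1.10 to -0.41), a difference that was not tested. Timp3 was highest in Schwann cells, at 1625 and 1933 CPM (0.21, 0.02 to 0.40). Timp2 was at 317 and 525 CPM in mesenchymal cells (0.78, 0.54 to 1.03) and at 554 and 547 CPM in Schwann cells. Mmp14, a membrane-bound collagenase, was at 325 and 418 CPM in mesenchymal cells. Of 13 genes in mesenchymal cells 3 were higher (Mmp19, Ctsk and Timp2) and 3 lower (Mmp9, Mmp15 and Timp3). In stellate cells 1 was higher (Timp3) and 1 lower (Mmp23, 14 and 1 UMIs) of 10, in endothelial cells none of 7 was past it, and in Schwann cells 0 were higher and 2 lower (Mmp11 and Timp1) of 10. The median ratio of the list was -0.08, -0.15, -0.15 and -0.15.

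TGF-β ligands, receptors and mediators, which are known to act on collagen transcription, formed the last list. Ltbp4, which binds the latent ligand, was highest in endothelial cells at 1267 and 1450 CPM, Tgfbr2 was at 310 and 365 CPM there, and Tgfb2 was highest in Schwann cells at 463 and 279 CPM (-0.77, -1.20 to -0.35). Of 15 genes in mesenchymal cells 4 were higher (Tgfb1, Ctgf, Smad2 and Ltbp1) and 4 lower (Tgfb2, Tgfb3, Tgfbi and Ltbp2). Ctgf, a matrix-associated target of the pathway, had 62 and 206 UMIs, Tgfb3 had 42 and 12 UMIs (-1.77, -2.87 to -0.86), and Tgfbi, a matrix protein that binds collagens, had 79 and 0 UMIs. In stellate cells 2 were higher (Tgfb3 and Ltbp3) and 2 lower, Smad2 among them, of 12, in endothelial cells none of 13 was past it, and in Schwann cells 3 were higher (Tgfbr2, Ltbp1 and Ltbp3) and 2 lower (Tgfb2 and Smad7) of 10. As a list they had medians of -0.06 in mesenchymal, 0.27 in stellate, 0.15 in endothelial and 0.24 in Schwann cells.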

How the data were processed

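Islet cells of 1 WT and 1 Npc1-/- library, each a pool of 3 mice, were profiled by droplet 3′ RNA sequencing. The authors deposited filtered matrices of UMI counts per gene and barcode, not normalized, made with Cell Ranger 3.1.0 on mm10 according to the submitters' processing notes, which also name Seurat 4.0.3. The filter on cells took the limits on genes, UMIs, mitochondrial and haemoglobin shares from the study's methods, but the removal of double cells that these also name was left to an alternative. UMIs were summed by library and class and divided by the UMIs of the class (CPM). The lists of genes and markers were chosen with earlier results of these data known, and the requirement of 5 detected markers was set after the data were examined. Barcodes with 5 or more markers of more than 1 class, mesenchymal and stellate taken as 1 (35 WT and 56 Npc1-/-), were kept apart as mixed, 123 and 152 low-hormone cells stayed unassigned, and no other doublets were removed in the values reported. Of the WT library 10 cells, and of the Npc1-/- library 5, had 4 mesenchymal markers, and 80 and 62 cells had a hormone between 8 and 12% of UMIs.

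Intervals are exact Poisson for sums, Clopper-Pearson for shares and conditional binomial for ratios. UMIs remove most PCR copies, but the intervals leave out variation between animals and preparations. A minimum of 5 CPM in either library was set for counts past 1.5-fold. Named were members with at least 20 CPM in any class, Npc1, marker genes, for each other list the 3 genes highest in stroma and the 2 with the widest ratio above 20 CPM, and the 5 genes most like Col1a1 and Col4a1. Some further members and all genes of short counts were named after their values were seen. For shares of cells with a UMI, cells were brought to 2000 UMIs by thinning, and shallower ones were dropped: 1 stellate cell of each library, 1 Npc1-/- Schwann cell and 9 WT β cells. A gene of the TGF-β list is not reported here. The scripts were tested on simulated data. Low-hormone cells were clustered without collagens (scanpy 1.11.5, leidenalg 0.10.2), and TMM factors came from edgeR 4.0.16. Other steps used Python 3.11.15, numpy 2.4.6, scipy 1.17.1 and pandas 2.3.3. Gene positions came from GENCODE vM21 and all 44 members matched, and 35 of 44 had a RefSeq promoter window. Alternatives varied the cell filter, doublet removal, class rule, hormone limit, scaling, weighting of cells, CPM minimum and fold.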

Additional observations from a re-analysis of the deposited data

Results flagged for a closer look

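Col14a1, a fibril-associated collagen, moved in opposite directions in 2 stromal classes. Its log2 ratio of Npc1-/- to WT relative to the median gene was 0.66 (0.46 to 0.85) in mesenchymal cells, from 357 to 563 UMIs, and -2.22 (-3.72 to -1.10) in stellate cells, from 33 UMIs in 8 cells to 7 UMIs in 3 cells. The difference between the classes was not tested, since each genotype was 1 library. In mesenchymal cells with 8 or more stellate markers, 25 of 63 in WT and 45 of 70 in Npc1-/-, Col14a1 was at 739 and 834 CPM, and in the rest at 417 and 748 CPM. Within stellate cells Col14a1 was at 115 and 63.3 CPM where a Col1a1 UMI was present and at 2.18 CPM and 0 UMIs where none was, and the number of such cells was 31 of 236 in WT and 16 of 253 in Npc1-/-.

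Col14a1 was also counted in immune cells, which entered no comparison. It was at 25.7 CPM (18.6 to 34.6) in WT, with 43 UMIs in 21 of 242 cells, and at 48.3 CPM (31.3 to 71.3) in Npc1-/-, with 25 UMIs in 15 of 33 cells. The class was made of different cells in the libraries, as 52 of the WT and 31 of the Npc1-/- cells had 5 or more macrophage markers. In these Col14a1 was lower in Npc1-/-, at 65.6 CPM (47.1 to 89.0) in WT and 49.0 CPM (31.7 to 72.4) in Npc1-/-, with overlapping intervals, and the other 190 WT cells held 2 of its UMIs. The β, α, δ and PP cells, which served as a background, held at most 1.47 CPM of Col14a1, and Col3a1, the most abundant mesenchymal collagen, was at 1.19 CPM in WT immune cells.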

How the results depend on the processing

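No paired analysis was possible because each genotype was 1 library. For the shares, ratios and counts of members in stroma and for the collagen level of hormone-led cells, 98 alternative values moved by less than their counting interval or by less than 1.5 times, 56 moved further and 1 reversed a ratio whose interval excluded 0. The values reported were shares of collagen in both libraries together of 2.51% in mesenchymal, 0.67% in stellate, 0.99% in endothelial and 0.81% in Schwann cells, and 113.8 CPM in hormone-led cells. The share of all genes past 1.5-fold was not computed under the alternatives. The counts of members in this section are therefore descriptions and are not read as changes in collagens. With classes from clusters the mesenchymal share was 2.46% and the endothelial 0.971%. In that setting 6 stellate and 6 endothelial members passed 1.5-fold in place of 3 and 0. With a hormone limit of 2%, which left 59 and 182 stellate cells, the shares were 2.55% mesenchymal, 0.687% stellate and 1.01% endothelial, the ratios were -0.023 stellate, 0.057 endothelial and 0.29 Schwann, the members were 9, 1 and 14, and hormone-led cells held 274.7 CPM. With hormone and acinar genes left out of totals the shares were 2.55%, 0.681% and 1.01% and the hormone-led level 212.6 CPM. As a mean over cells the mesenchymal share was 2.47% and ratio 0.12, the endothelial share 0.975% and its members 2. The looser cell filter gave a mesenchymal ratio of 0.13, 6 stellate members, a Schwann share of 0.599% and ratio of 0.24. The stricter one left 53 and 41 stellate and 10 and 10 Schwann cells. It gave a stellate share of 0.694%, 7 stellate members, a Schwann share of 0.901% and a Schwann ratio of 0.33. Without the highest doublet scores (317 and 261 barcodes) the stellate share was 0.675% with 5 members, the endothelial share 1.001% and the hormone-led level 76.9 CPM. At 20 CPM or at a fold of 2, 6 mesenchymal members passed in place of 10.

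The following were chosen after the data were examined. With 4 markers the shares were 2.41%, 0.654%, 0.984% and 0.744% from mesenchymal to Schwann, the ratios were 0.26 mesenchymal, 0.072 endothelial and -0.083 Schwann, the value that reversed, and 6 stellate members passed. With 6 markers the mesenchymal share was 2.56% and ratio 0.11 and the stellate share 0.689%. Mixed barcodes kept in their leading class gave a mesenchymal ratio of 0.13, a stellate share of 0.706% with 7 members and an endothelial share of 0.984% with 4. Without the cell with the most collagen UMIs the shares were 2.48% mesenchymal and 0.778% Schwann. Under 8 stellate markers the mesenchymal share was 2.61% and the ratio 0.34, and hormone-led cells with under 3 stromal markers held 65.9 CPM. The cause of these shifts was not tested. The Schwann sums, 252912 and 290805 UMIs, limit single genes most.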

Other observations

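Barcodes with 5 or more markers of more than 1 stromal or immune class, mesenchymal and stellate taken as 1, numbered 35 in WT and 56 in Npc1-/- and had collagen shares of 0.860% and 0.927% of UMIs and median UMI counts of 17431 and 22005, above the medians of every stromal class. In the clustering 20 and 43 of the low-hormone cells formed a group with a median of 11 stellate and 11 endothelial markers. Low-hormone cells that reached 5 markers of no list, 123 and 152, had collagen shares of 0.0118% and 0.0110%, close to those of the hormone-led cells.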
